A study of Mus musculus with 9 samples.

Results

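The genes described here encode the liver X receptors, their partner and sister receptors, and a corepressor that they recruit. They are Nr1h2 (LXRb), Nr1h3 (LXRa), Nr1h4 (FXR), Rxra, Rxrb and Rxrg (the retinoid X receptors) and Ncor1. They were taken by symbol from a table of 54838 genes, and all 7 were found there. Whole ovaries of adult mice were sampled 40 h after PMSG, which acts like follicle-stimulating hormone, and their total RNA was sequenced in 9 libraries. The wild-type group (WT), the group labelled DKO LXR (here DKO) and the group labelled DKO LXR TG-AMH-LXRb (here DKO_TG) had 3 libraries each. DKO lacks both LXR genes by its label. DKO_TG carries the same label plus a transgene named for Amh, a hormone gene of granulosa cells in growing follicles, and for LXRb. Every group received PMSG, so no group shows the unstimulated ovary. The labels give neither the deleted parts of Nr1h2 and Nr1h3, nor the transgene's sequence or promoter, nor the strain. They also do not say whether each library is a separate animal, so every p-value measures the spread between these libraries, which may be partly technical.

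LXRa and LXRb are nuclear receptors activated by oxysterols, the oxidised forms of cholesterol. Each binds DNA as a heterodimer with an RXR, on direct repeats of a half-site spaced by a few bases, and induces genes of cholesterol efflux and fatty acid synthesis. Without ligand the heterodimer is held with corepressors, NCoR1 among them, which bring a histone deacetylase to the gene. FXR, the product of Nr1h4, is the related receptor for bile acids and is best known from liver and intestine. In the ovary, LXRs are known for roles in granulosa cells, where cholesterol is the substrate of steroid synthesis. RXRs also pair with receptors for retinoic acid, thyroid hormone, vitamin D and fatty acids, so a change in RXR reaches beyond the LXRs.

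Levels are RPKM (reads per kilobase of exon, scaled to library size), which allow comparison between genes. A change is a difference of log2(RPKM + 0.5) between groups from limma, fitted over the 18889 genes that reached 0.5 RPKM in 3 or more libraries. A gene was called at a Benjamini-Hochberg adjusted p under 0.05. Library depth was 40.1 to 59.4 M reads. The WT libraries stood apart from the others. The nuclear-retained RNA Malat1 was at 7.38 RPKM in WT and rose by 4.98 in DKO and by 5.38 in DKO_TG on the log2 scale, and Neat1 rose by 5.71 and 5.81. Summed over a list of 5 such RNAs, the level was 2.42 to 13.6 RPKM for WT and 269 to 387 for the other 6 libraries. Against this background 56.7% of all tested genes were called in DKO against WT, and 51.4% in DKO_TG against WT, so most tested genes were called in each of these comparisons. In DKO_TG against DKO 2.23% were called. The balance of directions against WT depended on how libraries were scaled. In DKO against WT 5821 genes rose and 4889 fell on the deposited scale, against 10302 and 1056 after scaling to TPM, 8354 and 2306 with the plain total of reads, and 4916 and 6337 with TMM. In DKO_TG against WT these splits were 5491 and 4214 as deposited, 9981 and 987 (TPM), 7583 and 2230 (plain total), 4515 and 5661 (TMM), and 3777 and 4504 with quantile normalization. The part of this shift in each gene's change was not tested, and changes relative to the median of all genes are given below for the genes it touches. Markers of granulosa cells, theca, oocytes and macrophages were present in every group, as in ovary, with none of the 29 genes at 0 in all libraries of a group. Summed over 10 markers, macrophage RNA was at 187 to 236 RPKM in WT, 264 to 492 in DKO and 170 to 219 in DKO_TG. Summed over 6 oocyte markers, the level was 11.1 to 26 RPKM in WT and 25.4 to 61.7 in the other libraries. Summed over 8 granulosa markers it was 1807 to 2513 RPKM in WT, 1136 to 2306 in DKO and 1670 to 2046 in DKO_TG. Theca markers (5 genes) summed to 266 to 1029 RPKM in WT, 138 to 260 in DKO and 730 to 1086 in DKO_TG. Cyp17a1 had the highest mean RPKM of these genes in every group. By count, 3 of the 5 theca genes rose and 0 fell in DKO against WT (median 0.48). In whole ovary, fewer cells of a type and less RNA per cell cannot be told apart.

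Of the 6 genes that passed the filter, 4 were called in DKO against WT: Nr1h2, Nr1h3 and Rxra fell, and Rxrb rose. In DKO_TG against WT, Nr1h2, Nr1h3 and Rxra fell and none rose. The falls of Nr1h2 and Nr1h3 are those that the DKO label describes, so they say nothing about the set as a whole. Apart from them, Rxra and Rxrb were called in DKO and only Rxra in DKO_TG, while Nr1h4 and Ncor1 were called in neither. Calls in either direction made up 56.7% and 51.4% of all tested genes. Among all tested genes 30.8% rose and 25.9% fell in DKO against WT, and 29.1% and 22.3% in DKO_TG against WT. Counted by libraries that do not overlap, 32.6% lay higher and 28.6% lower in DKO against WT, and 35.6% and 30.2% in DKO_TG against WT. In DKO_TG against DKO, where 0.498% of all genes rose and 1.73% fell, limma called none of the 6, with 1 of 6 under an unadjusted p of 0.05 and 0 of the 5 genes testable with limma-voom on recovered reads. Rxrg stayed under the filter and was not tested.

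**Figure D1:**
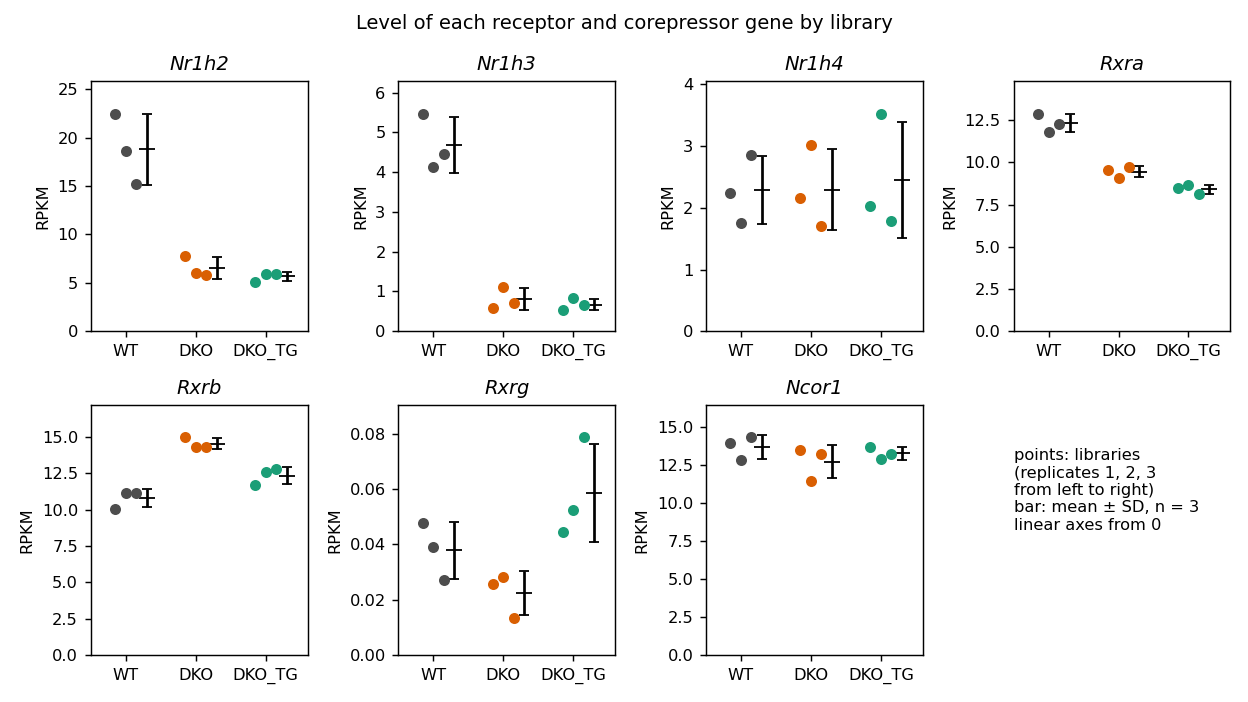
RPKM of each gene (linear axis from 0, own scale per panel) in the 9 libraries by group, with points for libraries and a bar for the mean ± SD of 3. Nr1h2 and Nr1h3 are lower in every DKO and DKO_TG library than in every WT library, Rxra follows the same order on a smaller scale, Rxrb is highest in DKO, and Nr1h4 and Ncor1 overlap in the 3 groups.

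Nr1h2 encodes LXRb, the LXR found in most tissues, and lies at chr7:44549616-44553951 on the minus strand of mm10 (GRCm38). In WT it was the highest of the 7 genes, with 22.5 RPKM in replicate 1, 18.7 in replicate 2 and 15.2 in replicate 3. The DKO libraries held 7.79, 6.02 and 5.79 RPKM, and the DKO_TG libraries held 5.14, 5.96 and 5.90. No library of either knockout group reached the lowest WT library. Group means were 18.8 ± 3.64 RPKM (WT), 6.53 ± 1.09 RPKM (DKO) and 5.67 ± 0.458 RPKM (DKO_TG; n = 3, SD). Part of the signal remained. On the deposited scale the DKO libraries kept 30.8% to 41.4% of the WT mean and the DKO_TG libraries 27.3% to 31.7%. These remainders rest on 1240 to 1337 reads in each DKO library and 830 to 985 in each DKO_TG one, against 2464 to 3456 in WT. In limma Nr1h2 fell by 1.45 on the log2 scale in DKO (SE 0.157, adjusted p = 0.000119) and by 1.63 in DKO_TG (adjusted p = 6.62e-05).

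Nr1h3 encodes LXRa, which is richest in liver, fat and macrophages, and lies at chr2:91184061-91202834 on the minus strand. WT replicates 1 to 3 held 5.47, 4.12 and 4.45 RPKM, well under the Nr1h2 level of the same libraries. In DKO the values were 0.590 RPKM in replicate 1, 1.11 in replicate 2 and 0.717 in replicate 3. In DKO_TG they were 0.538, 0.824 and 0.647 RPKM. The knockout groups overlapped each other and lay below WT in every library. Less of Nr1h3 than of Nr1h2 remained. On the deposited scale it was 12.6% to 23.8% of the WT mean in DKO and 11.5% to 17.6% in DKO_TG. That is 76 to 172 reads in each DKO library and 66 to 86 in each DKO_TG one, against 464 to 630 in WT. Nr1h3 fell by 2.00 in DKO (log2, 95% interval from -2.39 to -1.61, adjusted p = 3.24e-05 in limma) and by 2.15 in DKO_TG (adjusted p = 2.32e-05). Nr1h3 shares 34 exon bases with the gene model Gm13783 on the same strand, and Nr1h2 shares none with any other gene.

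The 2 LXR genes are related, so the remaining signal was set against the sequence they share. Their coding sequences are 1338 and 1335 bases long, and the longest stretch identical in both is 17 bases. It lies in the part of the coding sequence for the ligand-binding domain and is shown in capitals within its surroundings, 107 bases of each coding sequence, of which 79 are the same in place:
Nr1h2: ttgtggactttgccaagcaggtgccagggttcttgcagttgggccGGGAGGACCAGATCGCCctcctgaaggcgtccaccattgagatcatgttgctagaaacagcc
Nr1h3: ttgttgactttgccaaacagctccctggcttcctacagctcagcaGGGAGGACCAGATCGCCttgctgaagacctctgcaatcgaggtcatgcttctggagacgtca
Outside the capitals the genes differ every few bases. Of 3918 distinct runs of 50 bases in the Nr1h2 transcripts of GENCODE M21, 0 occur in a transcript of another gene. The same holds for 0 of 2741 runs of Nr1h3 once the overlapping Gm13783 is left out. The pseudogene Nr1h2-ps was listed at 0 in all 9 libraries. The values are totals over all exons of a gene, so exons that the knockout alleles may leave in place count towards them. Their part in the remaining signal was not tested.

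The proportion of Nr1h2 to Nr1h3 was higher in every knockout library than in any WT library, a difference that 3 against 3 libraries cannot call. Within each WT library Nr1h2 was 3.42 to 4.53 times Nr1h3 (4.02 ± 0.563, SD, n = 3). The ratio was 13.2, 5.41 and 8.08 in DKO and 9.55, 7.24 and 9.12 in DKO_TG. The DKO libraries spread widely. The exact two-sided permutation test gave p = 0.1 for either group against WT, the smallest that 3 against 3 libraries allow (adjusted p = 0.15 over 15 ratio comparisons). Such ratios are taken within a library, so scaling between libraries does not enter them. Both genes are those that the DKO label names as knocked out. In the knockout groups the ratio therefore compares what remained of their signal, and is no result about intact LXR genes.

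Nr1h2 was not called higher in the transgene-labelled group. Its libraries lay within or below the DKO range, and the change in DKO_TG against DKO was -0.18 (log2, 95% interval from -0.54 to 0.17, adjusted p = 0.621 in limma). For Nr1h3 it was -0.15 (95% interval from -0.54 to 0.24, adjusted p = 0.722). Without DKO replicate 2, the DKO library highest in Nr1h3, that value was 0.014. Whether reads of the transgene are counted under Nr1h2 cannot be read from the labels, so these values are no check of the transgene. Amh itself, whose name the transgene bears, was at 16.9 ± 4.59 RPKM (WT), 11.5 ± 3.93 RPKM (DKO) and 9.77 ± 0.851 RPKM (DKO_TG; n = 3, SD).

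The RXR genes supply the obligate partner of LXRs and FXR. Rxra, the main RXR of liver and skin, lies at chr2:27676440-27762957 on the plus strand. It held 12.9, 11.8 and 12.3 RPKM across the WT libraries, 9.56, 9.11 and 9.72 across DKO and 8.48, 8.64 and 8.12 across DKO_TG. The 3 groups did not overlap, with WT highest and DKO_TG lowest. Means were 12.3 ± 0.541, 9.46 ± 0.318 and 8.41 ± 0.266 RPKM (n = 3, SD), so DKO held 76.7% and DKO_TG 68.2% of the WT level. In limma Rxra fell by 0.36 on the log2 scale in DKO (95% interval from -0.53 to -0.20, adjusted p = 0.0030). In DKO_TG it fell by 0.53 (95% interval from -0.69 to -0.36, adjusted p = 0.000494). Between DKO_TG and DKO the change was -0.16 (95% interval from -0.33 to 0.00, adjusted p = 0.329). There 12.1% of all genes were lower without overlap and 12.1% were higher.

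Rxrb, the RXR expressed in most tissues, lies at chr17:34031812-34038399 on the plus strand. Its order was different: 10.1, 11.2 and 11.1 RPKM across the WT libraries, 15, 14.3 and 14.3 across DKO and 11.7, 12.6 and 12.8 across DKO_TG. Again no groups overlapped, with DKO highest and DKO_TG between DKO and WT. Means were 10.8 ± 0.613, 14.5 ± 0.378 and 12.3 ± 0.597 RPKM (n = 3, SD). Rxrb rose by 0.42 in DKO (log2, 95% interval from 0.24 to 0.59, adjusted p = 0.00214 in limma). In DKO_TG the change was 0.19 (95% interval from 0.01 to 0.36) and missed the threshold at an adjusted p of 0.0703. In DKO_TG against DKO it was -0.23 (95% interval from -0.40 to -0.05, unadjusted p = 0.0167, adjusted p = 0.196). Whole reads of Rxrb were not recovered with this annotation, so its read depth is unknown. The exon length behind its RPKM is unknown too, and its level beside other genes depends on that length.

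**Figure D2:**
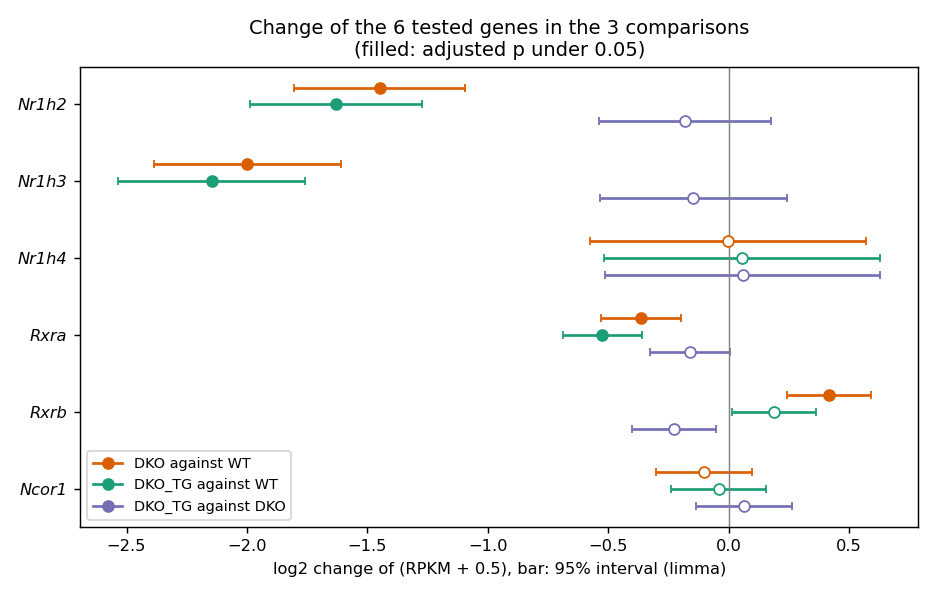
Change of log2(RPKM + 0.5) with its 95% interval from limma for the 6 tested genes in the 3 comparisons, filled where the adjusted p was under 0.05. Nr1h2 and Nr1h3 lie furthest from 0 in both comparisons with WT, Rxra and Rxrb lie on opposite sides of 0 in both comparisons with WT on this deposited scale, and all intervals for DKO_TG against DKO except that of Rxrb include 0 or end at it.

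How far Rxra fell depended on the scaling between libraries. TMM, TPM and the plain total multiply every gene of a library by the same factor. By construction they leave its distance from Rxrb, or from the median gene, nearly unchanged. Only quantile normalization could have moved these distances. In DKO against WT the change of Rxra was -0.49 with TMM, -0.06 with the plain total of reads (adjusted p = 0.536 in limma) and 0.16 with TPM scaling (adjusted p = 0.277), so the fall was lost with the plain total and its sign turned with TPM. The median of all genes moved with these scalings, from 0.02 as deposited to -0.10, 0.29 and 0.49. Relative to that median, Rxra was at -0.38 as deposited, -0.39 with TMM, -0.35 with the plain total, -0.33 with TPM and -0.25 with quantile normalization. Rxrb was at 0.40, 0.39, 0.43, 0.45 and 0.54 in the same order, above the median gene throughout. In DKO_TG against WT the median moved from 0.03 as deposited to 0.48 with TPM, where the value of Rxra was -0.02 (adjusted p = 0.900) and lay at -0.50 relative to the median. Rxrb passed the threshold in DKO_TG with TPM (0.69, adjusted p = 0.00328 in limma), with the plain total of reads (0.44, adjusted p = 0.00696) and with array weights (0.17, adjusted p = 0.0291). Nr1h2 and Nr1h3 kept their calls against WT under every setting, but the size of their falls moved. In DKO against WT the change ran from -1.59 to -0.92 for Nr1h2 and from -2.56 to -1.57 for Nr1h3. In DKO_TG against WT it ran from -1.77 to -1.13 and from -2.82 to -1.73. The share of each gene that remained thus depends on the setting.

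**Figure D3:**
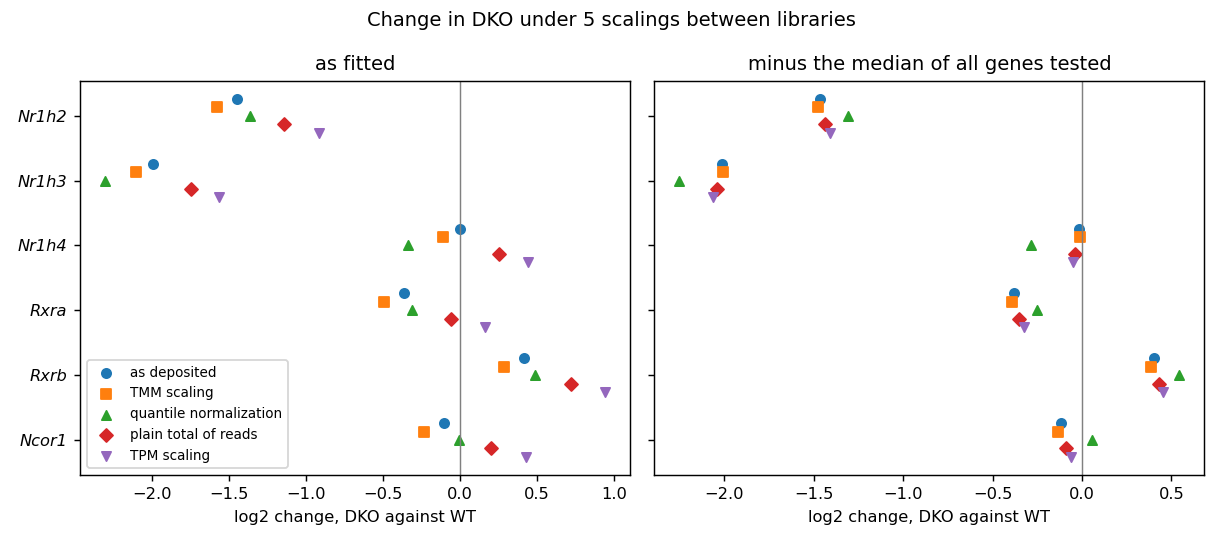
Log2 change in DKO against WT of the 6 tested genes under 5 scalings between libraries, as fitted (left) and minus the median change of all genes tested (right). On the left Rxra runs from -0.49 to 0.16, and on the right it stays between -0.39 and -0.25 while Rxrb stays between 0.39 and 0.54. Scalings other than quantile normalization can hardly move the values on the right.

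Within a library, by the deposited RPKM, Rxra was the larger part of the RXR pool in WT and Rxrb in the knockout groups. Rxra made up 56.0%, 51.3% and 52.4% of the summed RXR RPKM across WT, 38.9%, 38.9% and 40.4% across DKO and 42.0%, 40.6% and 38.7% across DKO_TG. This held in each of the 9 libraries. The exon length behind the Rxrb RPKM is not known, so which gene is the larger part holds for the deposited values only. The Rxrb share was 46.6 ± 2.48% in WT, 60.5 ± 0.819% in DKO and 59.3 ± 1.57% in DKO_TG (n = 3, SD). For both shares the exact two-sided permutation p was 0.1 in either group against WT, the smallest possible (adjusted p = 0.15). In DKO_TG against DKO the libraries overlapped, with exact permutation p = 0.5 for Rxra and 0.2 for Rxrb. Summed Nr1h2 and Nr1h3 were about level with summed RXR in WT, at 1.21, 0.991 and 0.839 times its RPKM. The ratio was 0.341, 0.304 and 0.270 in DKO and 0.281, 0.319 and 0.312 in DKO_TG. The highest knockout library lay below the lowest WT library (exact permutation p = 0.1, adjusted p = 0.15). The numerator sums the genes that the DKO label names as knocked out. A lower ratio than in WT therefore follows from the label and is no separate result about the RXR genes.

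**Figure D4:**
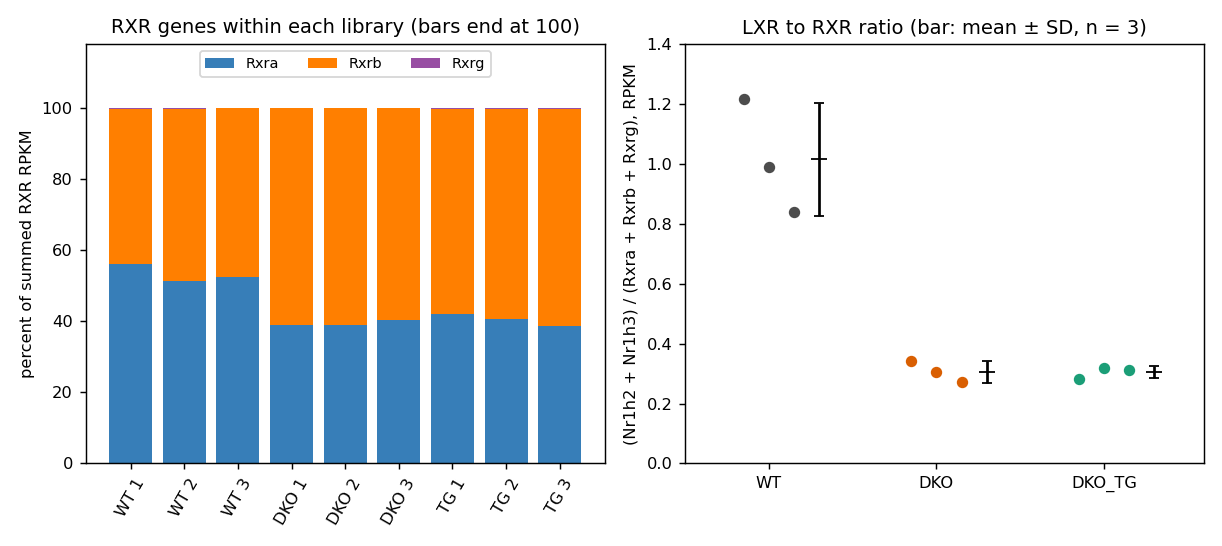
Left, the share of Rxra, Rxrb and Rxrg in the summed RXR RPKM of each library (percent, bars end at 100, TG for DKO_TG). Right, the ratio of summed LXR to summed RXR RPKM by library with mean ± SD of 3. On the deposited RPKM Rxra passes 50% only in the 3 WT libraries, and the ratio is 0.839 to 1.21 in WT and 0.270 to 0.341 in the other 6. The numerator of the ratio holds the genes that the DKO label names.

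Rxrg, the RXR of muscle and brain, lies at chr1:167598384-167639623 on the plus strand and was close to the limit of detection. It was at 0.0475, 0.0389 and 0.0270 RPKM across the WT libraries, 0.0255, 0.0284 and 0.0133 across DKO and 0.0446, 0.0525 and 0.0787 across DKO_TG. Each value rests on 2 to 9 reads. Summed over 3 libraries these were 12 reads in WT, 9 in DKO and 19 in DKO_TG. Per library size, DKO_TG held 2.68 times the Rxrg of DKO, with a 95% exact interval from 1.16 to 6.73 that covers counting error only. Against WT the same measure was 0.585 in DKO (0.218 to 1.51) and 1.57 in DKO_TG (0.723 to 3.55), and both intervals span equal levels. Its share of summed RXR was 0.0934 ± 0.0341% in DKO and 0.281 ± 0.0825% in DKO_TG (n = 3, SD), without overlap (exact permutation p = 0.1, adjusted p = 0.15). Of 2345 runs of 50 bases in Rxrg transcripts, 8 also occur in other genes, and 2 to 9 reads do not show where in the gene they fall.

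Rxra and Rxrb are close relatives, and the coding sequence they share most closely is shown because both genes were called in DKO. Their longest identical coding stretch is 29 bases, near the end of the ligand-binding domain. It is shown in capitals within 119 bases of each coding sequence, of which 105 are the same in place:
Rxra: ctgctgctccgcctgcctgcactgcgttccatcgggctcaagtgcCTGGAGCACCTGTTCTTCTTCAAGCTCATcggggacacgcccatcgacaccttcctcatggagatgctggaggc
Rxrb: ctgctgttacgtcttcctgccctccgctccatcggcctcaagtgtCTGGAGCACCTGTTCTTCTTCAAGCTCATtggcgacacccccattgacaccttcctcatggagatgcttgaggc
No run of 50 bases from either gene occurs in the transcripts of another gene (0 of 5444 for Rxra and 0 of 4147 for Rxrb). How the reads were assigned between them was not tested.

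The promoters of the 4 genes that were called in DKO are shown for comparison, because Rxra and Rxrb differed in direction on the deposited scale. The falls of Nr1h2 and Nr1h3 are those that the DKO label describes, so their promoters stand for reference only. They are RefSeq promoters on GRCm38.p6, 300 bases from 250 before to 50 after the annotated start, read in the direction of the gene. Of the members, 7 matched the table, and the first start listed is used here. Capitals mark each GC box (GGGCGG, on either strand) and each nuclear receptor half-site (AGGTCA, on either strand). The Rxra promoter lies at chr2:27676951-27677250 on the plus strand, that of Rxrb at chr17:34031562-34031861 on the plus strand, that of Nr1h2 at chr7:44553916-44554215 on the minus strand and that of Nr1h3 at chr2:91195067-91195366 on the minus strand.
Rxra: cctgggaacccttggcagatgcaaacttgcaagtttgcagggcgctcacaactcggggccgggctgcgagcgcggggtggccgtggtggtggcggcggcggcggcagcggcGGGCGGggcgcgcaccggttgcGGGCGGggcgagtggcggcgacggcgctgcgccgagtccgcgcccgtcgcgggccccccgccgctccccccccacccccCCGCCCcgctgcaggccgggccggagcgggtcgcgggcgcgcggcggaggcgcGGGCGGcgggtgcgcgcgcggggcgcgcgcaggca
Rxrb: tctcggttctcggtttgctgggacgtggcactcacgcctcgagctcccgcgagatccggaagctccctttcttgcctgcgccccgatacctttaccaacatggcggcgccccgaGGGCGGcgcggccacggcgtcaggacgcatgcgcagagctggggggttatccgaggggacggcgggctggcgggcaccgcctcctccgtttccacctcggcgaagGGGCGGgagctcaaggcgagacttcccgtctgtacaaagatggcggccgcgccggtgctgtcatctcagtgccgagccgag
Nr1h2: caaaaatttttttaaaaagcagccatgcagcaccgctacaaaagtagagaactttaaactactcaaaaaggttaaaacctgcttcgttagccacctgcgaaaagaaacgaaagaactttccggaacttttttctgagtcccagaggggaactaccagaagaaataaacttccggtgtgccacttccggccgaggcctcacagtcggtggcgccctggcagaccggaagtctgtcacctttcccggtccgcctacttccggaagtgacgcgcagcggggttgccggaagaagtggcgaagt
Nr1h3: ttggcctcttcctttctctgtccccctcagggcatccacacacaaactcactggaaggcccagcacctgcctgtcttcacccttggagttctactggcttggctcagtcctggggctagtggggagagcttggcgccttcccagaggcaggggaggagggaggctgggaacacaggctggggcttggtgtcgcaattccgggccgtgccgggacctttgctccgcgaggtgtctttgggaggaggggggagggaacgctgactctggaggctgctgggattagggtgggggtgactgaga
In these windows Rxra held 4 GC boxes and Rxrb 2, while those of Nr1h2 and Nr1h3 held none. The table lists a second start for Rxra, with 0 GC boxes and 2 half-sites, and for Rxrb, with 4 GC boxes and 0 half-sites, and for Nr1h3, with 0 of each, so the counts of the RXR genes depend on the start. A GC box is found in 35.7% of the 32851 promoters of the table. No window shown held the half-site, which is in 16.3% of promoters. None held it as the direct repeat spaced by 4 bases that LXR-RXR heterodimers prefer (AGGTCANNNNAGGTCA, in 0.0152% of promoters) or as the one spaced by 1 base (AGGTCANAGGTCA, 0.0396%). The E-box CACGTG, found in 7.15% of promoters, was also in none of them. A missing match says only that these letters are not in this window.

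Nr1h4, the bile acid receptor gene, lies at chr10:89454234-89533585 on the minus strand and was expressed at a low level in all groups. It was at 2.25, 1.76 and 2.86 RPKM across the WT libraries, 2.16, 3.01 and 1.71 across DKO and 2.03, 3.53 and 1.79 across DKO_TG. The 3 groups overlapped, with 181 to 426 reads behind each value. The change was -0.00 in DKO against WT (log2, 95% interval from -0.57 to 0.57, adjusted p = 0.993 in limma). It was 0.05 in DKO_TG against WT (adjusted p = 0.872) and 0.06 in DKO_TG against DKO (adjusted p = 0.937). The sign turned with the scaling and with single libraries left out, and a change within these intervals was not detectable. In the knockout groups Nr1h4 was higher than Nr1h3 in every library, whereas in WT it was lower in every library.

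Few other genes of the bile acid pathway were expressed. Of a list of 9 FXR targets and bile acid genes, 2 passed the filter. Nr0b2, which encodes the repressor SHP and is a classic FXR target, was at 2.24 ± 0.485 RPKM (WT), 2.71 ± 0.434 RPKM (DKO) and 2.38 ± 0.447 RPKM (DKO_TG; n = 3, SD) and was not called. Slc51b, a subunit of a bile acid exporter, was at 0.0810 ± 0.0944, 0.369 ± 0.200 and 0.421 ± 0.188 RPKM. Its only call was a rise of 0.65 in DKO_TG against WT (adjusted p = 0.0400 in limma). Slc51b passed the filter through libraries of the higher groups, overlaps Rasl12 on the other strand, and lost its call without WT replicate 2 or 3 (adjusted p up to 0.120), without the filter, and with quantile normalization, where the value was -0.020.

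Ncor1 encodes NCoR1, the corepressor that holds unliganded LXR-RXR inactive, and lies at chr11:62316426-62458541 on the minus strand. It was at 13.9, 12.8 and 14.3 RPKM across the WT libraries, 13.5, 11.5 and 13.2 across DKO and 13.7, 12.9 and 13.2 across DKO_TG. The 3 groups overlapped, with 6841 to 11056 reads behind each value. The change was -0.10 in DKO against WT (log2, 95% interval from -0.30 to 0.09, adjusted p = 0.328 in limma) and -0.04 in DKO_TG against WT (adjusted p = 0.706). It was 0.06 in DKO_TG against DKO (adjusted p = 0.773). Ncor1 passed the threshold in DKO with TMM (-0.23, adjusted p = 0.0351) and with TPM (0.43, adjusted p = 0.0329), on opposite sides of 0. With TPM it also passed in DKO_TG against WT (0.47, adjusted p = 0.0237). In Ncor1, 82 exon bases overlap Pigl and 1 overlaps Ttc19 on the other strand, and 171 of 13452 runs of 50 bases also occur in other genes.

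Some other subunits of the corepressor complexes were called. Of the 11 other genes on that list, 4 rose and 0 fell in DKO against WT, with a median of 0.16, and 3 rose and 0 fell in DKO_TG against WT, with a median of 0.10. Over all genes 56.7% and 51.4% were called, so the list's share was below the background, and the median of all genes was 0.02 and 0.03. In DKO against WT the split was 2 and 4 with TMM and 10 and 0 with TPM. In DKO_TG against WT it was 1 and 1 with TMM and 9 and 0 with TPM, so no direction holds for the list. Hdac3, the histone deacetylase that NCoR1 activates, rose from 15.1 ± 0.772 RPKM in WT to 21 ± 1.22 in DKO and 20.7 ± 0.435 in DKO_TG (n = 3, SD), by 0.46 and 0.44 on the log2 scale (adjusted p = 0.00141 and 0.00196 in limma). Gps2, a small subunit of the NCoR complex, rose by 0.30 in DKO (adjusted p = 0.0165), a call lost without WT replicate 2 or 3 (adjusted p up to 0.0554), with TMM and in a fit of 6 libraries. Rcor1, the scaffold of the separate CoREST complex, rose by 0.41 in DKO_TG (adjusted p = 0.0136), a call lost with TMM and without DKO_TG replicate 1 (adjusted p = 0.0533). Tbl1xr1, a subunit that also exchanges corepressors for coactivators, completes the genes called in DKO_TG and was named after its values were seen. It rose by 0.48 in DKO and by 0.45 in DKO_TG (adjusted p = 0.0269 and 0.0386). With TMM neither of these rises was called, nor was that in DKO with quantile normalization. Its calls were not followed under the remaining settings.

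Coro2a, an actin-binding subunit of the NCoR complex, was the one gene of that list that also differed between DKO_TG and DKO. It was at 2.55 ± 0.980 RPKM (WT), 7.86 ± 2.98 RPKM (DKO) and 1.77 ± 0.394 RPKM (DKO_TG; n = 3, SD). It rose by 1.45 in DKO against WT (adjusted p = 0.00376 in limma) and fell by 1.84 in DKO_TG against DKO (adjusted p = 0.0232). The second call was lost without the filter, in a fit of 6 libraries, without DKO replicate 2 or 3 and without any 1 of the DKO_TG libraries (adjusted p up to 0.0907). Coro2a shares 329 exon bases with the antisense gene Gm16731 and is uncertain. Macrophage markers moved the same way. In DKO against WT 8 of 10 were called higher, beside 30.8% of all tested genes. In DKO_TG against DKO 7 of 10 were called lower, beside 1.73% of all tested genes. These marker counts were not rerun with single libraries left out, and the markers' part in the Coro2a values was not tested.

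Coactivators, which replace the corepressors once ligand binds, gave 3 rises and 1 fall among 10 tested of 12 in DKO against WT (median 0.25), and 4 and 1 in DKO_TG against WT (median 0.14). The shares called over all genes were 56.7% and 51.4%. In DKO the split was 3 and 1 with TMM, and 9 and 0 with TPM. In DKO_TG against WT it was 3 and 2 with TMM, and 7 and 0 with TPM. Crebbp, the acetyltransferase CBP, rose by 0.86 in DKO and 0.84 in DKO_TG (adjusted p = 0.00328 and 0.00395 in limma). Kat2b, the acetyltransferase PCAF, rose by 0.54 and 0.73 (adjusted p = 0.00208 and 0.000489). Med1, the Mediator subunit that contacts nuclear receptors, rose by 0.43 in DKO and 0.85 in DKO_TG (adjusted p = 0.00873 and 0.000320). Prmt1, an arginine methyltransferase, was the one gene that fell, by 0.52 and 0.42 (adjusted p = 0.00570 and 0.0166), and with TPM scaling its values were 0.023 and 0.10. Both calls of Prmt1 were lost with TPM, quantile normalization and the plain total (adjusted p up to 0.835 in DKO and 0.625 in DKO_TG). The second was also lost without DKO_TG replicate 1 (adjusted p = 0.0559). No coactivator was called by limma in DKO_TG against DKO.

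The RXRs also serve other heterodimer partners. Apart from the LXR genes and Nr1h4, 10 of 13 such receptor genes were tested. Of these 2 rose and 1 fell in DKO against WT, and 1 rose and 1 fell in DKO_TG against WT. Calls over all genes stood at 56.7% and 51.4%. In DKO the counts of the list became 0 and 1 with TMM and 7 and 0 with TPM. In DKO_TG against WT they became 1 and 2 with TMM and 4 and 0 with TPM. Thrb, a thyroid hormone receptor, was at 1.68 ± 0.235 RPKM (WT), 2.37 ± 0.424 RPKM (DKO) and 2.78 ± 0.331 RPKM (DKO_TG; n = 3, SD). It rose by 0.40 in DKO (adjusted p = 0.0352 in limma) and by 0.59 in DKO_TG (adjusted p = 0.00693). Its rise in DKO was lost under 10 of 22 settings, and that in DKO_TG with quantile normalization (adjusted p = 0.163). Rara, a retinoic acid receptor, rose by 0.35 in DKO (adjusted p = 0.0173) and was at 4.91 ± 0.0984 RPKM in DKO_TG beside 5.08 ± 0.642 in WT. Nr4a1, the immediate-early receptor Nur77, fell by 0.90 in DKO (adjusted p = 0.0233), from 15.4 ± 7.45 to 7.59 ± 1.75 RPKM. The calls of Rara and Nr4a1 were lost without DKO replicate 1 or 3 (adjusted p up to 0.0573 and 0.0684), and that of Rara also without WT replicate 3. Rara was also not called with TMM, quantile normalization or a fit of 6 libraries (adjusted p up to 0.108), nor Nr4a1 with TPM, the plain total or a fit of 6 libraries (adjusted p up to 0.135). Thra, the other thyroid hormone receptor, fell by 0.33 in DKO_TG against WT (adjusted p = 0.0251). It overlaps Nr1d1 on the other strand, turned to 0.18 with TPM, and lost its call without WT replicate 1 or any of the DKO_TG libraries (adjusted p up to 0.0799). Quantile normalization and the plain total also ended that call (adjusted p up to 0.611).

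Set among 49 nuclear receptor genes ranked by RPKM in each library, Nr1h2 went from place 3 to 5 in WT to place 15 or 16 in DKO and 16 or 17 in DKO_TG. Nr1h3 went from place 15 to 19 in WT to 29 to 36 in DKO and 32 or 33 in DKO_TG. Both thus dropped by more places than any spread between libraries of one group. Rxra moved from place 7 or 8 in WT to 10 or 11 in DKO and 12 to 14 in DKO_TG. Rxrb was at place 8 or 9 in WT, 6 or 7 in DKO and 6 to 9 in DKO_TG, which overlaps WT. Nr1h4 stayed between place 21 and 28 in all 9 libraries, and Rxrg between 40 and 47. Of the 30 other nuclear receptor genes tested, 10 rose and 1 fell in DKO against WT, and 5 rose and 1 fell in DKO_TG against WT, with medians of 0.23 and 0.08. Over all tested genes the shares called were 56.7% and 51.4%. In DKO the split was 5 and 3 with TMM, 4 and 4 with quantile normalization and 21 and 0 with TPM. In DKO_TG against WT it was 5 and 4, 4 and 6, and 15 and 0 in the same order. Nr1d2, a heme-binding clock repressor, rose from 6.88 ± 0.667 RPKM in WT to 18.2 ± 2.26 in DKO (log2 change 1.34, adjusted p = 0.000114 in limma) and to 13.4 ± 2.31 in DKO_TG (0.91, adjusted p = 0.00100; n = 3, SD). Nr2f2, the orphan receptor COUP-TFII of stromal and theca cells, rose by 0.70 and 0.59 (adjusted p = 0.00154 and 0.00406) and overlaps the gene model B130024G19Rik on the other strand. Esrra, a regulator of oxidative metabolism that overlaps Trmt112, rose by 0.91 and 0.78 (adjusted p = 0.00139 and 0.00323). Nr6a1, a germ cell receptor, rose by 1.12 in both groups (adjusted p = 0.000247 and 0.000263). It was at 0.291 ± 0.0829 RPKM in WT and passed the filter through the groups where it was higher. The oocyte markers were higher in the same libraries, with 4 of 6 called in DKO and 5 of 6 in DKO_TG, and their part in the Nr6a1 values was not tested.

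**Figure D5:**
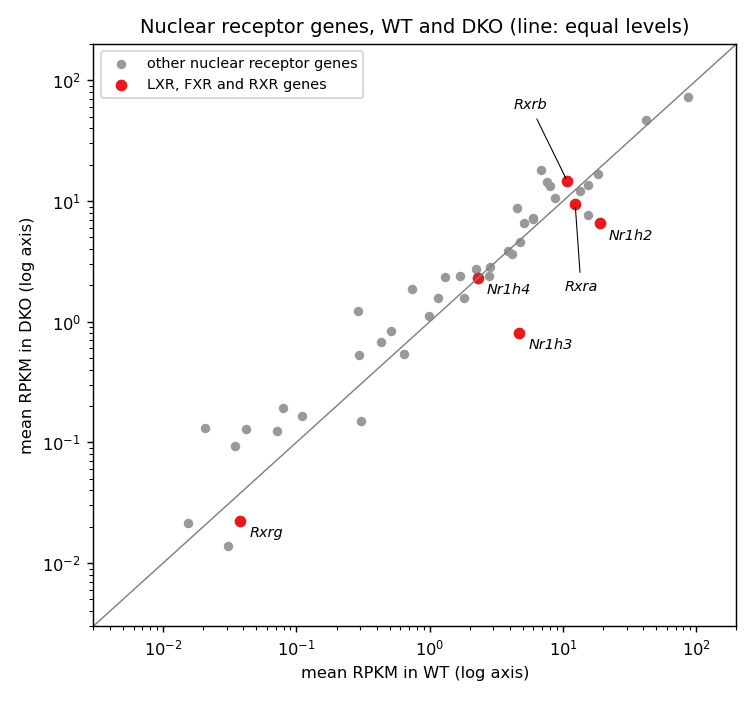
Mean RPKM of nuclear receptor genes in DKO against WT (log axes, 47 genes above 0 in both groups, line of equal levels), with LXR, FXR and RXR genes in red. Nr1h3 (4.68 in WT, 0.807 in DKO) and Nr1h2 (18.8 and 6.53) lie below the line, Rxra slightly below, Rxrb above, and Nr1h4 on it.

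Within each group the order of the 7 genes by RPKM was stable between libraries. In WT it ran Nr1h2, Ncor1, Rxra, Rxrb, Nr1h3, Nr1h4 and Rxrg, and only the neighbours Ncor1 and Rxra overlapped in range. In DKO it ran Rxrb, Ncor1, Rxra, Nr1h2, Nr1h4, Nr1h3 and Rxrg, with no overlap between neighbours. In DKO_TG Ncor1 stood above Rxrb and the other places were as in DKO, again without overlap.

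Retinoid genes supply or remove the ligands of the RXRs and their retinoic acid partners. Of 10 tested of 12, 4 rose and 4 fell in DKO against WT (median -0.31), and 2 rose and 4 fell in DKO_TG against WT (median -0.04). Among all tested genes 56.7% and 51.4% were called in the same comparisons. In DKO the split was 3 and 5 with TMM and 4 and 1 with TPM. In DKO_TG against WT it was 0 and 4 with TMM and 3 and 3 with TPM. Aldh1a2, which makes retinoic acid, fell from 60.9 ± 6.61 RPKM in WT to 35.8 ± 11.3 in DKO and 25.3 ± 0.404 in DKO_TG (n = 3, SD), by 0.80 and 1.24 on the log2 scale (adjusted p = 0.00683 and 0.000791 in limma). With TPM and with quantile normalization the call in DKO was lost (adjusted p up to 0.244). Rbp4, the retinol carrier of blood, fell by 1.51 and 1.52 (adjusted p = 0.000299 and 0.000317), from 2.12 ± 0.691 RPKM to 0.396 ± 0.0916 and 0.389 ± 0.0312, and passed the filter through WT. Dhrs3, which returns retinal to retinol, rose by 0.80 in DKO (adjusted p = 0.000465) and by 0.31 in DKO_TG (adjusted p = 0.0428). The second of these calls was lost under 8 of 22 settings, 5 of them with 1 library left out (without WT replicate 1 or 3, DKO replicate 1, or DKO_TG replicate 2 or 3, adjusted p up to 0.151).

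The genes that LXR-RXR heterodimers are known to induce did not share one direction on the deposited scale. Of 14 tested of 16, 1 rose and 3 fell in DKO against WT (median -0.03), and 2 rose and 4 fell in DKO_TG against WT (median -0.02). Beside them, 56.7% and 51.4% of all tested genes were called. With TPM 8 rose and 0 fell in DKO, and 7 rose and 1 fell in DKO_TG against WT, so the list's count of falls depends on the scaling. Mertk, a phagocytic receptor of macrophages, rose by 1.10 in DKO and 0.80 in DKO_TG (adjusted p = 0.00129 and 0.00678 in limma), the second lost with quantile normalization (adjusted p = 0.0710). Fasn, the fatty acid synthase, fell by 0.62 and 0.43 (adjusted p = 0.00595 and 0.0318). Both calls were lost with TPM, quantile normalization and the plain total (adjusted p up to 0.686 in DKO). The second was also lost without the filter, without WT replicate 1 or any of the DKO_TG libraries (adjusted p up to 0.0990), and with TPM the value was 0.092. Apoe, a lipid carrier, was at 214 ± 48.9 RPKM in WT and 203 ± 59.4 in DKO, and fell to 103 ± 10.4 in DKO_TG (n = 3, SD; log2 change against WT -1.03, adjusted p = 0.00597, and 0.0624 with quantile normalization). Pltp, the phospholipid transfer protein gene, which overlaps Ctsa on the other strand, was at 6.95 ± 1.01, 8.75 ± 2.30 and 3.73 ± 0.169 RPKM. It fell by 0.81 in DKO_TG against WT (adjusted p = 0.00386, and 0.110 with TPM) and by 1.10 against DKO (adjusted p = 0.0183), the second lost in a fit of 6 libraries and without any 1 of the DKO_TG libraries (adjusted p up to 0.0943). The macrophage markers were lower in DKO_TG than in DKO as given above, and their part in Apoe, Pltp and Mertk was not tested.

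Profiles most like those of the members were found by correlation of log2 levels over the 9 libraries among 11838 protein-coding genes. The 9 points share 3 genotypes, so these values are a description and mostly follow the difference between WT and the rest. Nr1h2 was closest to Mllt1 (r = 0.995), Nfic (0.992) and Cfap126 (0.989), and 204 genes passed 0.95. Nr1h3 was closest to Rpl10-ps3 (0.995), Rpl10 (0.994) and Alg9 (0.993), with 457 genes past 0.95. Rxra was closest to Cdk5rap3 (0.987), Mcub (0.985) and Sardh (0.983), and Rxrb to Fam117a (0.978), Rin2 (0.978) and Cnppd1 (0.976). Nr1h4 was closest to Spop (0.912), Tiprl (0.906) and Nptn (0.866), and Ncor1 to Virma (0.942), Trim37 (0.923) and Anapc1 (0.921). No gene passed 0.95 for either of these, whose levels differed little between groups.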

How the data were processed

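Per the labels, total RNA of 9 ovary samples was sequenced on an Illumina NextSeq. The authors deposited 1 table of RPKM values for 54838 genes. Per the submitters' processing notes, build mm10 was used with HISAT2 2.1.0, cutadapt, DESeq2 1.2.8 and HTSeq 0.5.4p5. How RPKM was computed, which annotation served and whether counting used strand is not given in the sources used here. DKO_TG columns write the transgene's name in another way than the titles, so group and number identified them.

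Tests used limma 3.58.1 in R 4.3.3 (eBayes with trend) on log2(RPKM + 0.5), all 9 libraries in one fit, adjusted over all 18889 genes. Such changes understate those of low genes. RPKM times exon length (GENCODE M21, 54809 identifiers matched) divided by a step per library gave whole reads for 97.8% of values above 0, within 0.01 read or a relative 1e-06. The library size behind the RPKM was 0.793 to 0.920 times the total of reads in WT and 1.03 to 1.11 times in the other libraries. All 37 mt- genes were listed at 0. Ratios within a library were tested by exact two-sided permutation (scipy 1.17.1), and the fit was tested on simulated data. Alternatives were other pseudocounts and filters, TMM, TPM and quantile scaling, array weights, the replicate block, a fit of 6 libraries and leaving out each library. Limma-voom on recovered reads, the plain total of reads and protein-coding genes only were chosen after seeing the data.

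The members and gene lists were chosen with earlier results of these data known. Named besides the 7 members are up to 4 genes per list with the smallest adjusted p, the 3 protein-coding genes most correlated with each tested member, and Malat1, Neat1 and Amh as checks. Some genes that this rule selects are left unreported. Intervals on read counts cover counting error only.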

Additional observations from a re-analysis of the deposited data

How the results depend on the processing

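Under 22 alternatives the number of members called was 3 to 5 in DKO against WT, 3 to 4 in DKO_TG against WT and 0 in DKO_TG against DKO, and leaving out any library kept these at 4, 3 and 0. Nr1h2 and Nr1h3 against WT, and Rxrb in DKO against WT, kept direction and call under every alternative run. Depth limited Rxrg, with 2 to 9 reads per library, and the exact permutation tests of ratios could not go below p = 0.1.

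With TPM scaling the log2 change in DKO against WT was 0.44 for Nr1h4, 0.16 for Rxra, 0.43 for Ncor1 and 0.023 for Prmt1, and in DKO_TG against WT 0.47 for Ncor1, 0.10 for Prmt1, 0.18 for Thra and 0.092 for Fasn, each with a sign opposite to that on the deposited scale. With the plain total of reads the sign also turned for Nr1h4 (0.25) and Ncor1 (0.20) in DKO against WT and for Ncor1 (0.21) in DKO_TG against WT. In DKO_TG against WT it turned with TMM for Nr1h4 (-0.060), with quantile normalization for Nr1h4 (-0.25), Ncor1 (0.034) and Slc51b (-0.020), and with array weights for Nr1h4 (-0.010). Relative to the median of all genes, Ncor1 in DKO against WT was at -0.12 as deposited, -0.06 with TPM and -0.09 with the plain total. Nr1h4 was at -0.02, -0.05 and -0.04 in the same order. With quantile normalization these values were 0.05 for Ncor1 and -0.28 for Nr1h4. The cause of the turns was not tested. With 1 library left out, Nr1h4 ran from -0.18 to 0.15 in DKO against WT, from -0.19 to 0.21 in DKO_TG against WT and from -0.19 to 0.23 in DKO_TG against DKO. In the last comparison Nr1h3 ran from -0.27 to 0.014 and Ncor1 from -0.0084 to 0.10.

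For the ratio of Nr1h2 to Nr1h3, the log2 difference in DKO_TG against DKO was 0.044, became -0.034 with a pseudocount of 0.5, and ran from -0.27 (without DKO replicate 2) to 0.38 (without DKO replicate 1). For summed LXR to summed RXR it was -0.0020, became 0.011 with the pseudocount, and ran from -0.086 to 0.081. The other ratio alternatives kept their direction (98 of 105).

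The count of all genes called in DKO_TG against DKO was 421, and fell to 230 without the filter, to 57 in a fit of 6 libraries and to 99 with the replicate number as a block. With 1 library left out it ran from 31 to 422: 31, 32 and 33 without DKO_TG replicate 2, 1 and 3, 136 and 212 without DKO replicate 3 and 2, and 198 and 247 without WT replicate 2 and 3. The replicate numbers do not pair the samples. The deviations of same-numbered libraries correlated between -0.31 and 0.14. The replicate block called 9865 genes in DKO against WT beside 10710 without it, and changed no call of a member, though it ended those of Thrb in DKO against WT, Dhrs3 in DKO_TG against WT and Pltp in DKO_TG against DKO.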
